A study of Homo sapiens with 3 samples.

Results

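The DNA replication and nucleotide synthesis genes of irradiated bladder carcinoma cells are described here through 53 genes. The genes were chosen as a list of symbols by function, with earlier results of these data known. They encode the MCM2-7 helicase (6 genes), origin licensing factors (9), helicase activation factors (8), the replicative polymerases with primase (10), the single-strand binding protein with the sliding clamp and its loader (9), Okazaki fragment processing enzymes (2), fork protection factors (3), chromatin assembly factor subunits (2) and enzymes of deoxynucleotide synthesis (4). Each of the 53 symbols matched 1 Ensembl identifier among the 58381 genes of the count table, and all 53 passed the filter on low counts, a mean of at least 10 counts over the 3 libraries, which 18761 genes passed.

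RNA-seq was performed on T24, a human bladder carcinoma cell line, with 1 library for each of 3 conditions. By the methods, T24 cells were infected with a lentivirus for the knockdown and selected with puromycin. The Ctrl library came from control cells without irradiation, and the RT library from control cells given 10 Gy from a 137Cs source. The RT + shHDAC6 library came from cells that carried an shRNA against HDAC6, a mainly cytoplasmic deacetylase of tubulin, and received the same 10 Gy. The methods name a pLKO.1 control vector, and the treatment label of Ctrl reads Empty. The text of the paper calls the irradiated comparator parental, so the vector in the control cells was not settled. RT against Ctrl addresses the response to irradiation, and RT + shHDAC6 against RT, also called the ratio between the irradiated libraries, addresses the knockdown in irradiated cells. The knockdown without irradiation was not among the libraries analysed here, 1 shRNA sequence was used, and the time from irradiation to harvest is not given in the sources used here. Because each condition has 1 library, no difference could be checked against replicates, and no p-values are reported.

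Before S phase, the origin recognition complex, CDC6 and CDT1 load the MCM2-7 helicase on DNA at replication origins. The kinases CDC7-DBF4 and CDK then activate it with CDC45 and GINS, and polymerases alpha, delta and epsilon copy the strands with RPA, PCNA and its loader RFC, while ribonucleotide reductase, thymidylate synthase and thymidine kinase supply the deoxynucleotides. Many of these genes are transcribed by E2F factors around the start of S phase, so in cultured cells their RNA is usually highest in populations with many cycling cells, and in bulk RNA a smaller share of cells in a cycle phase and less RNA per cell cannot be told apart.

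Library totals ranged from 35424086 (RT + shHDAC6) over 35959265 (RT) to 41811165 counts (Ctrl), so that 3 counts corresponded to between 0.0718 and 0.0847 CPM (counts per 1000000 counts of the library). In the order Ctrl, RT and RT + shHDAC6, which is kept for all values given without labels, the 53 genes took 0.558%, 0.623% and 0.650% of the counts, and mitochondrial RNA took 3.75%, 6.09% and 5.51%. HDAC6 itself, the targeted gene, had 3098, 2383 and 2170 counts, a log2 ratio of -0.20 for RT + shHDAC6 against RT, so the RNA of the target was only slightly lower in the library labelled as a knockdown. Of the 6 epithelial markers, KRT18 had 7336, 8362 and 9048 counts and a log2 ratio of 0.62 for RT against Ctrl, whereas KRT8 (-0.49), KRT19 (-0.67), EPCAM (-0.39) and CDH1 (-0.55) had counting intervals below 0 there, and the list median was -0.44. The uroplakins UPK1A, UPK1B, UPK2 and UPK3A, which mark differentiated urothelium, had between 0 and 18 counts in any library. KRT7 had 3533, 3854 and 597 counts, and the urothelial transcription factors GATA3 and PPARG had 2320, 1423 and 709 and 1298, 650 and 352, all 3 genes being called lower in RT + shHDAC6 against RT. The other 5 epithelial markers had counting intervals above 0 there, with ratios up to 0.51 (EPCAM), and the epithelial list median was 0.29. The leukocyte markers PTPRC, CD3E and CD14 had between 14 and 120 counts and the endothelial markers PECAM1, CDH5 and VWF between 68 and 489. In RT against Ctrl, 1 of 6 epithelial and 0 of 6 urothelial markers were called higher by the 1.5-fold rule given next. In each of the 2 lists 1 marker was called lower. Over all genes tested, 13.0% were called higher and 12.7% lower. The urothelial marker called lower was a uroplakin with at most 18 counts, as the filter on low counts was not applied to these lists. The part of these differences in the results was not tested.

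Levels were expressed as CPM after TMM scaling, a method that sets library factors from the trimmed mean of the log ratios over genes. Each log2 ratio of 2 libraries is given with the 95% Clopper-Pearson interval of its counts, which covers counting error only. A gene was called when it differed by at least 1.5-fold and the interval excluded 0. The TMM factors moved every log2 ratio up by 0.22 in RT against Ctrl and 0.13 in RT + shHDAC6 against Ctrl, and by -0.084 between the irradiated libraries, compared with the library totals alone. The values with library totals are given where they change a call.

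**Figure D1:**
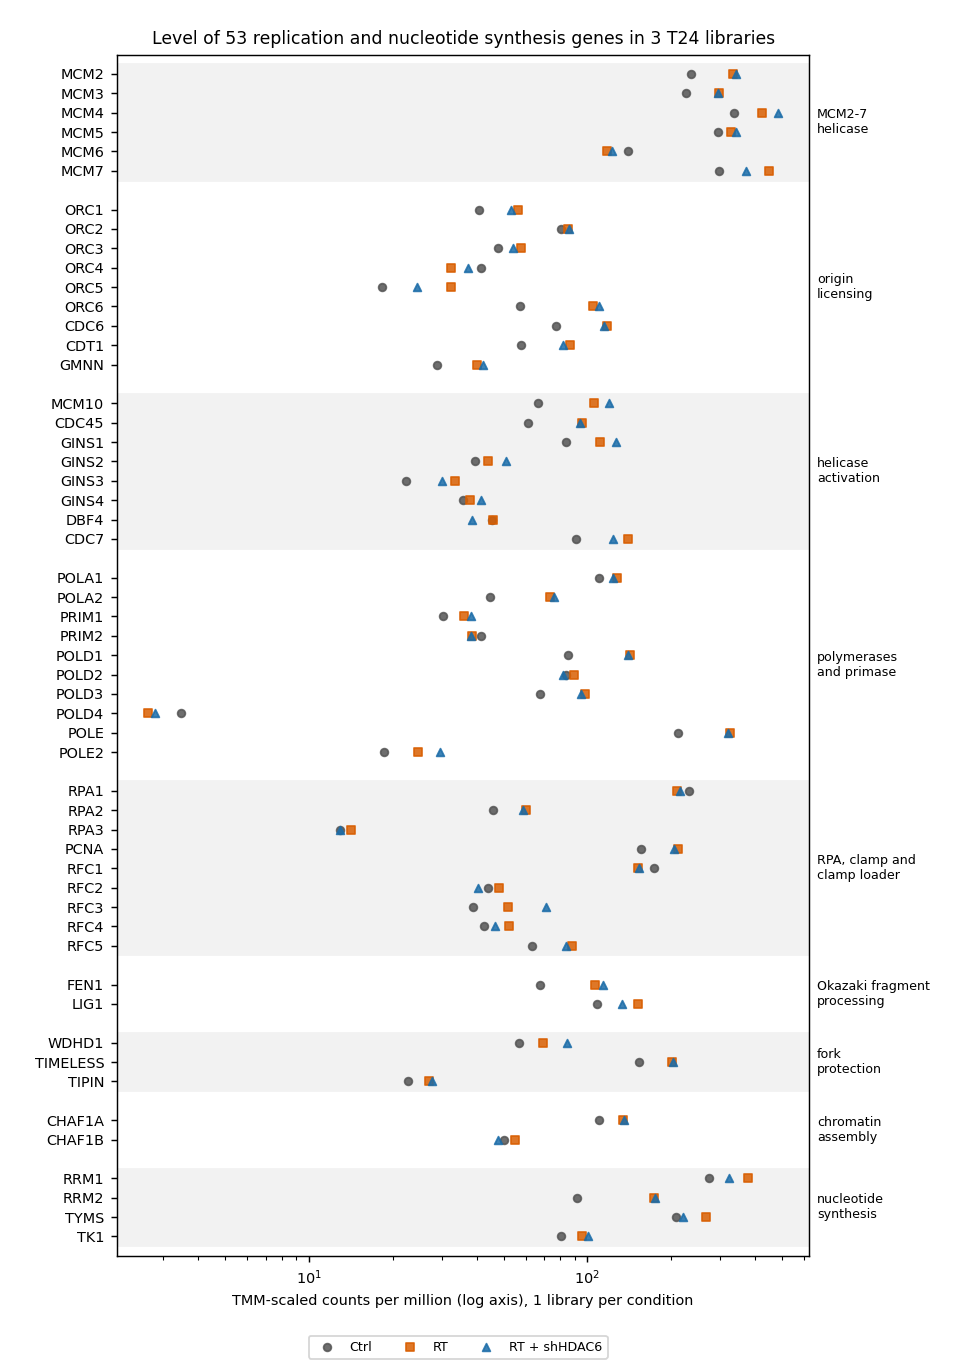
Level of each of the 53 genes (rows, grouped by role) in the Ctrl, RT and RT + shHDAC6 libraries, in TMM-scaled CPM on a log axis, 1 library per condition, no error bars. The RT and RT + shHDAC6 symbols lie to the right of Ctrl for most genes, as for RRM2 with 92.0, 173 and 175 CPM, and MCM6, ORC4, POLD4, PRIM2, RPA1 and RFC1 lie to the left of it in both.

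In RT against Ctrl, the replication genes were higher as a group: 47 of 53 lay above a log2 ratio of 0 and 6 below, with a median of 0.39. Their counting intervals lay above 0 for 44 genes and below 0 for 6, beside 3776 and 2256 of the 7020 genes with a mean of at least 1000 counts. The median of all 18761 genes tested was -0.028, and that of the 7020 genes with a mean of at least 1000 counts was 0.12. By the 1.5-fold call, 13 genes (24.5%) were higher and 0 were lower, against 13.0% called higher and 12.7% called lower over all genes tested. Among genes with at least 1000 counts, 18.8% were called higher and 4.23% lower. The 13 genes were MCM7, ORC5, ORC6, CDC6, CDT1, MCM10, CDC45, CDC7, POLA2, POLD1, POLE, FEN1 and RRM2, with log2 ratios from 0.59 (CDT1) to 0.91 (RRM2). CDT1 was the called gene nearest to the limit of 0.585, and GINS3, at 0.58, was the nearest one short of it.

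Most of these calls rested on the scaling. With library totals, 3 genes (5.66%) were called higher (ORC5, ORC6 and RRM2) and 1 (1.89%) lower (POLD4), with a median of 0.18. Over all genes tested 6.99% were then called higher and 22.8% lower, and over genes with at least 1000 counts 10.2% and 12.2%. The share of members called higher was thus not above that of other genes under this scaling. The sign of 10 genes depended on the scaling: MCM5, ORC2, GINS2, GINS4, DBF4, POLA1, POLD2, RPA3, RFC2 and CHAF1B lay above 0 with TMM and below 0 with library totals. Under all 4 scalings tried, the interval lay above 0 for 31 genes and below 0 for 4 (MCM6, ORC4, RPA1 and RFC1). The share of other genes with such intervals under all 4 scalings was not counted. The place of the genes among others does not depend on a scaling: 43 of the 53 lay above the median of the genes with at least 1000 counts, 20 above the upper quartile and 4 below the lower quartile, and the 2 medians differed by 0.27.

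**Figure D2:**
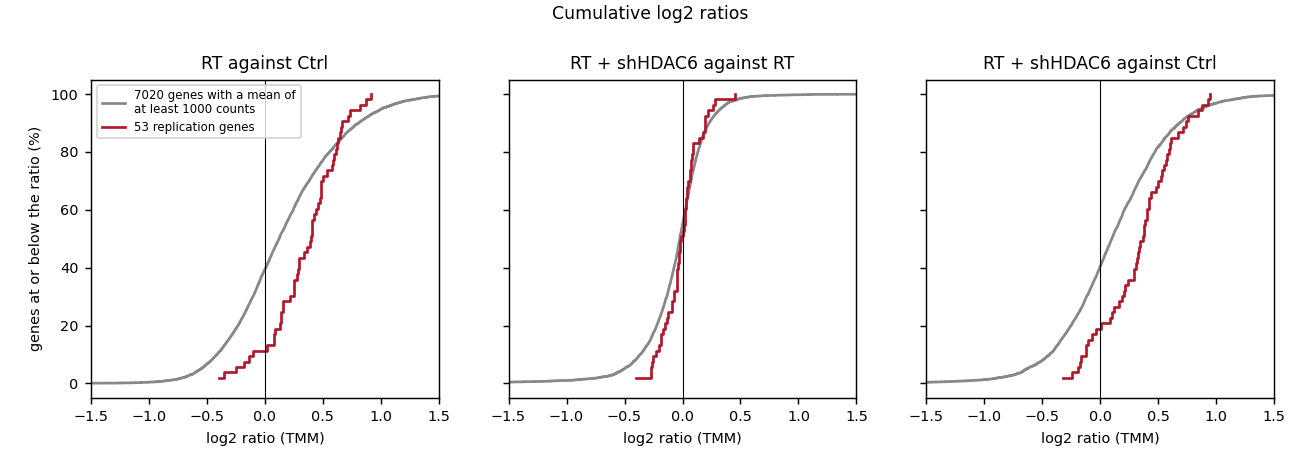
Cumulative share of genes (percent, y axis) at or below a TMM-scaled log2 ratio (x axis) for the 53 replication genes (red steps) and the 7020 genes with a mean of at least 1000 counts (grey), in 3 panels of 1 library against 1. The red steps run to the right of the grey curve in RT against Ctrl (medians 0.39 and 0.12) and in RT + shHDAC6 against Ctrl (0.37 and 0.10), and cross it in RT + shHDAC6 against RT (-0.017 and -0.024).

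Between the irradiated libraries the same genes differed little. In RT + shHDAC6 against RT, 26 lay above 0 and 27 below, the median was -0.017, and 0 of 53 were called higher and 0 lower, against 4.71% and 6.35% over all genes tested and 0.912% and 3.22% over the genes with at least 1000 counts. The ratios ran from -0.40 (ORC5) to 0.46 (RFC3), and their SD across genes was 0.161 against 0.293 for the genes with at least 1000 counts. With library totals the median was 0.067, 0 genes were called in either direction, and 6.29% of all genes tested were called higher and 5.15% lower. The sign of the median thus depended on the scaling, as did the sign of 13 genes (MCM3, ORC1, CDC6, CDC45, POLA1, PRIM2, POLD1, POLD3, POLE, RPA2, PCNA, RFC1 and RFC5). The median interval reached 0.071 to either side of the ratio, and under all 4 scalings the interval lay above 0 for 12 genes (MCM4, MCM5, ORC4, ORC6, MCM10, GINS1, GINS2, GINS4, POLE2, RFC3, FEN1 and WDHD1) and below 0 for 9 (MCM7, ORC5, DBF4, CDC7, RFC2, LIG1, CHAF1B, RRM1 and TYMS).

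In RT + shHDAC6 against Ctrl, which shares the Ctrl library with RT against Ctrl, 11 genes (20.8%) were called higher and 0 lower. Over all genes tested the shares were 11.8% and 13.5%, and over genes with at least 1000 counts 14.1% and 5.90%. The 11 genes were ORC6, MCM10, CDC45, GINS1, POLA2, POLD1, POLE, POLE2, RFC3, FEN1 and RRM2, and the median of the 53 was 0.37. With library totals 6 were called higher (ORC6, MCM10, POLA2, RFC3, FEN1 and RRM2), with a median of 0.23, against 7.97% called higher and 18.4% called lower over all genes tested.

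The helicase subunits MCM2 to MCM7 form a ring in which each is present once. Their levels per kilobase of transcript in Ctrl ran from 37.1 (MCM6) to 120.0 (MCM7) TMM-scaled CPM per kb. MCM7 (chr7:100092233-100101940, a GENCODE position on GRCh38, as for the other genes) had 13421 (Ctrl), 14997 (RT) and 12970 (RT + shHDAC6) counts, which after TMM scaling was 296 (Ctrl), 447 (RT) and 370.4 (RT + shHDAC6) CPM. The level was highest in RT, with a log2 ratio of 0.60 (95% interval, 0.56 to 0.63) against Ctrl, and the ratio of RT + shHDAC6 against RT was -0.27 (95% interval, -0.31 to -0.24). MCM6 went the other way, with 6322 (Ctrl), 3939 (RT) and 4288 (RT + shHDAC6) counts and 139, 117 and 122 CPM. It was highest in Ctrl, and RT against Ctrl stood at -0.25 (95% interval, -0.31 to -0.19) and the ratio was 0.060 between the irradiated libraries.

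MCM2 had 10679 (Ctrl), 11186 (RT) and 11921 (RT + shHDAC6) counts, or 235, 334 and 340.4 CPM, a ratio of 0.50 for RT against Ctrl and 0.030 between the irradiated libraries. A gene model without a symbol on the opposite strand overlaps 23.6% of the exon length of MCM2. MCM3 stood at 225, 298 and 293 CPM (0.40 and -0.023), again lowest in Ctrl. MCM4 had 335 (Ctrl), 423 (RT) and 483 (RT + shHDAC6) CPM, with ratios of 0.34 and 0.19, and was the helicase subunit with the highest ratio in RT + shHDAC6 against RT. MCM5 differed little, at 295, 329 and 341 CPM (0.16 and 0.052), and its first ratio was -0.061 with library totals. So 5 of the 6 subunits were higher in RT than in Ctrl by their TMM intervals and MCM6 was lower.

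Of the origin licensing factors, 4 of 9 were called higher in RT against Ctrl and 0 lower, against 13.0% higher over all genes tested, and 2 were with library totals (ORC5 and ORC6). The median log2 ratio was 0.48. ORC6, the smallest subunit of the origin recognition complex (chr16:46689643-46698394), had 2594 (Ctrl), 3507 (RT) and 3867 (RT + shHDAC6) counts. In TMM-scaled CPM this was 57.2 (Ctrl), 105 (RT) and 110.4 (RT + shHDAC6), so that RT against Ctrl stood at 0.87 (95% interval, 0.80 to 0.94) and the ratio was 0.079 between the irradiated libraries. Both irradiated libraries lay well above Ctrl. ORC5, another subunit (chr7:104126341-104208047), had 827 (Ctrl), 1082 (RT) and 855 (RT + shHDAC6) counts and 18.2, 32.3 and 24.4 CPM. Its ratio was 0.82 (95% interval, 0.69 to 0.96) for RT against Ctrl and -0.40 (95% interval, -0.53 to -0.27) between the irradiated libraries, the lowest of the 53 genes in the latter, so that the RT + shHDAC6 library lay between the other 2. ORC4 had 1886 (Ctrl), 1090 (RT) and 1301 (RT + shHDAC6) counts and 41.6, 32.5 and 37.2 CPM, with ratios of -0.36 (95% interval, -0.46 to -0.25) and 0.19 (95% interval, 0.076 to 0.31), and was lowest in RT and highest in Ctrl.

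CDC6, the ATPase that joins the complex at origins (chr17:40287879-40304657), had 76.9 (Ctrl), 118 (RT) and 115 (RT + shHDAC6) CPM from 3486, 3949 and 4015 counts, with ratios of 0.62 (95% interval, 0.55 to 0.68) and -0.038. CDT1, which brings the helicase to the origin (chr16:88803789-88809258), had 57.8 (Ctrl), 86.8 (RT) and 81.6 (RT + shHDAC6) CPM from 2621, 2910 and 2856 counts, with ratios of 0.59 (95% interval, 0.51 to 0.66) and -0.089. Both had close levels in the irradiated libraries, above Ctrl. ORC1, ORC2, ORC3 and GMNN, the CDT1 inhibitor geminin, were not called, with ratios from 0.077 (ORC2) to 0.48 (GMNN) for RT against Ctrl and from -0.088 (ORC3) to 0.076 (GMNN) between the irradiated libraries.

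Among the helicase activation factors, 3 of 8 were called higher in RT against Ctrl and 0 lower, beside the 13.0% of all genes tested, and 0 were with library totals. The median was 0.49. MCM10, a scaffold that turns the loaded helicase on (chr10:13161558-13211110), had 3012 (Ctrl), 3537 (RT) and 4179 (RT + shHDAC6) counts. Its level was 66.4 (Ctrl), 105 (RT) and 119 (RT + shHDAC6) CPM, with ratios of 0.67 (95% interval, 0.60 to 0.74) and 0.18 (95% interval, 0.11 to 0.24), and it was highest in RT + shHDAC6. CDC45, a subunit of the active helicase (chr22:19479457-19520612), had 2776 (Ctrl), 3209 (RT) and 3283 (RT + shHDAC6) counts and 61.2, 95.7 and 93.8 CPM. The ratio was 0.64 (95% interval, 0.57 to 0.72) for RT against Ctrl and -0.029 between the irradiated libraries, so the irradiated libraries were close to each other and above Ctrl. CDC7, the kinase that phosphorylates the MCM ring (chr1:91500851-91525764), had 4115 (Ctrl), 4701 (RT) and 4310 (RT + shHDAC6) counts and 90.7, 140.2 and 123 CPM, with ratios of 0.63 (95% interval, 0.57 to 0.69) and -0.19 (95% interval, -0.25 to -0.13).

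DBF4, the regulatory subunit of CDC7, had 2055 (Ctrl), 1541 (RT) and 1344 (RT + shHDAC6) counts and 45.3, 45.9 and 38.4 CPM. It did not differ between RT and Ctrl beyond its counting interval, at 0.020 (95% interval, -0.076 to 0.12), and was lowest in RT + shHDAC6, at -0.26 (95% interval, -0.37 to -0.15) against RT. The 4 subunits of GINS, which joins the active helicase, ran from 0.076 (GINS4) to 0.58 (GINS3) in RT against Ctrl. GINS2 had the highest ratio of this role in RT + shHDAC6 against RT, 0.22 (95% interval, 0.12 to 0.32), with 39.4 (Ctrl), 43.8 (RT) and 50.9 (RT + shHDAC6) CPM from 1788, 1469 and 1782 counts. GINS1, called only in RT + shHDAC6 against Ctrl, had 3796, 3718 and 4441 counts and a ratio of 0.60 (95% interval, 0.54 to 0.66) there. The same comparison gave 0.43 for GINS3, which stood at 22.4, 33.5 and 30.1 CPM.

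The highest and the lowest ratio of the 10 polymerase and primase genes in RT against Ctrl were both those of subunits of polymerase delta. In that comparison 3 were called higher and 0 lower, beside the 13.0% of all genes tested, with a median of 0.33, and with library totals 0 were called higher and 1 (POLD4) lower. POLD1, the catalytic subunit of polymerase delta (chr19:50384204-50418018), had 3875 (Ctrl), 4757 (RT) and 4902 (RT + shHDAC6) counts and 85.4 (Ctrl), 142 (RT) and 140.0 (RT + shHDAC6) CPM. Its ratios were 0.73 (95% interval, 0.67 to 0.79) for RT against Ctrl and -0.019 between the irradiated libraries, so both irradiated libraries lay above Ctrl. POLD2, an accessory delta subunit, had 3811, 2996 and 2871 counts and 84.0, 89.3 and 82.0 CPM, with ratios of 0.088 and -0.12. POLD3 stood between these at 0.53 for RT against Ctrl. POLD4, the smallest delta subunit, was the least counted of the 53 genes, with 158 (Ctrl), 89 (RT) and 98 (RT + shHDAC6) counts and 3.48, 2.65 and 2.80 CPM, and had ratios of -0.39 (95% interval, -0.78 to -0.0091) and 0.077 (95% interval, -0.35 to 0.51), the widest intervals of all members. With library totals its first ratio was -0.61, the only call of a lower gene. A gene on the same strand overlaps 21.3% of its exon length.

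POLE, the catalytic subunit of polymerase epsilon (chr12:132623753-132687376), had 9577 (Ctrl), 10913 (RT) and 11183 (RT + shHDAC6) counts and 211, 325 and 319 CPM, with ratios of 0.62 (95% interval, 0.58 to 0.66) and -0.027. POLE2, its second subunit, had 846, 827 and 1039 counts and 18.7 (Ctrl), 24.7 (RT) and 29.7 (RT + shHDAC6) CPM, with ratios of 0.40 for RT against Ctrl, 0.27 (95% interval, 0.13 to 0.40) for RT + shHDAC6 against RT and 0.67 for RT + shHDAC6 against Ctrl. POLE2 was thus highest in RT + shHDAC6. POLA2, the regulatory subunit of polymerase alpha (chr11:65261913-65305959), had 2030 (Ctrl), 2469 (RT) and 2648 (RT + shHDAC6) counts and 44.8, 73.6 and 75.6 CPM, with ratios of 0.72 (95% interval, 0.63 to 0.80) and 0.039. A gene model on the same strand overlaps 16.8% of its exon length. The catalytic subunit POLA1 and the primase subunits PRIM1 and PRIM2 were not called in either comparison, at 0.21, 0.25 and -0.10 for RT against Ctrl.

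Of the 9 genes of RPA, the clamp and the clamp loader, 0 were called in RT against Ctrl. Over all genes tested, 13.0% were called higher and 12.7% lower. The ratios of the 9 genes ran from -0.18 (RFC1) to 0.48 (RFC5) with a median of 0.29, and 6 intervals lay above 0 and 2 below. PCNA, the sliding clamp, had 7084 (Ctrl), 7105 (RT) and 7158 (RT + shHDAC6) counts, or 156 (Ctrl), 212 (RT) and 204 (RT + shHDAC6) CPM, with ratios of 0.44 (95% interval, 0.39 to 0.49) and -0.051. Its level per kilobase in Ctrl, 122 TMM-scaled CPM per kb, was next to those of MCM7 and TYMS, the other members above 100. RFC5, a small subunit of the loader, had 2866, 2956 and 2929 counts and 63.2, 88.1 and 83.6 CPM, and the large subunit RFC1 had 7854, 5115 and 5370 counts and 173, 152 and 153 CPM. RFC5 was lowest in Ctrl and RFC1 was highest there, with ratios of 0.48 (95% interval, 0.41 to 0.55) and -0.18 (95% interval, -0.23 to -0.13).

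RFC3, another small loader subunit, had 1761 (Ctrl), 1744 (RT) and 2496 (RT + shHDAC6) counts and 38.8 (Ctrl), 52.0 (RT) and 71.3 (RT + shHDAC6) CPM, with ratios of 0.42 (95% interval, 0.32 to 0.52) for RT against Ctrl and 0.46 (95% interval, 0.37 to 0.54) between the irradiated libraries, the highest of the 53 genes in the latter. With library totals that ratio was 0.54, which also stayed under 1.5-fold. RFC2 had 1992 (Ctrl), 1618 (RT) and 1416 (RT + shHDAC6) counts and 43.9, 48.2 and 40.4 CPM, with ratios of 0.14 and -0.25 (95% interval, -0.36 to -0.15), and was lowest in RT + shHDAC6. RFC4 had ratios of 0.29 and -0.17. Of the single-strand binding subunits, RPA1 and RPA2 differed in sign in RT against Ctrl (-0.13 and 0.39), and RPA3 (586, 476 and 454 counts) lay at 0.14 (95% interval, -0.042 to 0.31).

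FEN1, the nuclease that trims Okazaki fragment flaps (chr11:61792911-61797238), had 3070 (Ctrl), 3567 (RT) and 3974 (RT + shHDAC6) counts and 67.7 (Ctrl), 106 (RT) and 113 (RT + shHDAC6) CPM. Its ratios were 0.65 (95% interval, 0.58 to 0.72) and 0.094 (95% interval, 0.028 to 0.16), and it was highest in RT + shHDAC6. LIG1, the ligase that seals the fragments, had 4926 (Ctrl), 5085 (RT) and 4656 (RT + shHDAC6) counts and 109, 152 and 133 CPM, with ratios of 0.48 and -0.19 (95% interval, -0.25 to -0.13), and was highest in RT. WDHD1, which links the helicase to polymerase alpha, had 2586 (Ctrl), 2331 (RT) and 2964 (RT + shHDAC6) counts and 57.0, 69.5 and 84.6 CPM, with ratios of 0.29 and 0.28 (95% interval, 0.21 to 0.36). TIMELESS and its partner TIPIN, which travel with the fork, stood at 154, 201 and 204 and at 22.6, 27.0 and 27.7 CPM, with ratios for RT against Ctrl of 0.39 and 0.25 and between the irradiated libraries of 0.015 and 0.036. A ribosomal protein pseudogene on the same strand overlaps 21.1% of the exon length of TIPIN. CHAF1A and CHAF1B, subunits of the factor that places histones on new DNA, had 4974, 4495 and 4753 and 2281, 1843 and 1674 counts, or 109.7, 134 and 136 and 50.3, 54.9 and 47.8 CPM. The ratios of CHAF1A were 0.29 and 0.018, and those of CHAF1B were 0.13 and -0.20 (95% interval, -0.30 to -0.10).

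Of the deoxynucleotide synthesis genes, RRM2 was called higher in RT against Ctrl and had the highest ratio of all 53 genes there. RRM2, the small subunit of ribonucleotide reductase (chr2:10120698-10211725), had 4172 (Ctrl), 5804 (RT) and 6135 (RT + shHDAC6) counts. Its level was 92.0 (Ctrl), 173 (RT) and 175 (RT + shHDAC6) CPM, with ratios of 0.91 (95% interval, 0.85 to 0.97) for RT against Ctrl and 0.018 between the irradiated libraries, and it was among the 3 genes called with library totals as well (0.69). RRM1, the large subunit, had 12351 (Ctrl), 12662 (RT) and 11299 (RT + shHDAC6) counts and 272, 378 and 323 CPM. It was highest in RT, with ratios of 0.47 (95% interval, 0.44 to 0.51) and -0.23 (95% interval, -0.26 to -0.19).

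TYMS, the thymidylate synthase, had 9396 (Ctrl), 8921 (RT) and 7696 (RT + shHDAC6) counts and 207, 266 and 219.8 CPM, with ratios of 0.36 (95% interval, 0.32 to 0.40) and -0.28 (95% interval, -0.32 to -0.23), and was likewise highest in RT. ENOSF1 and TYMSOS on the opposite strand overlap 47.9% of the exon length of TYMS, and since the strand setting of the counting is not given, reads from these genes could not be told apart from those of TYMS if strand was not used. TK1, the thymidine kinase of the salvage route, had 3659 (Ctrl), 3215 (RT) and 3518 (RT + shHDAC6) counts and 80.7, 95.9 and 100.5 CPM, with ratios of 0.25 (95% interval, 0.18 to 0.32) and 0.068. With library totals its first ratio was 0.031.

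Subunits of 1 complex did not move alike, and a ratio of 2 counts within a library needs no scaling. The pairs described were chosen after the values were seen and are a description. The 95% intervals of their changes are normal approximations from the counts of both genes in both libraries. The MCM7 to MCM6 count ratio was 2.12 (Ctrl), 3.81 (RT) and 3.02 (RT + shHDAC6), a log2 change of 0.84 (95% interval, 0.78 to 0.91) for RT against Ctrl and -0.33 (95% interval, -0.40 to -0.26) between the irradiated libraries. ORC5 to ORC4 was 0.439 (Ctrl), 0.993 (RT) and 0.657 (RT + shHDAC6), with changes of 1.18 (95% interval, 1.01 to 1.35) and -0.59 (95% interval, -0.77 to -0.42). ORC6 to ORC4 was 1.38 (Ctrl), 3.22 (RT) and 2.97 (RT + shHDAC6), with changes of 1.23 (95% interval, 1.10 to 1.36) and -0.11 (95% interval, -0.25 to 0.019). In these 3 pairs both irradiated libraries lay above Ctrl, and for the pairs of MCM7 and ORC5 the RT + shHDAC6 library lay between the other 2.

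The catalytic to accessory ratio of polymerase delta, POLD1 to POLD2, was 1.02 (Ctrl), 1.59 (RT) and 1.71 (RT + shHDAC6), and that of the kinase to its activator, CDC7 to DBF4, was 2.00 (Ctrl), 3.05 (RT) and 3.21 (RT + shHDAC6). RFC5 to RFC1 was 0.365 (Ctrl), 0.578 (RT) and 0.545 (RT + shHDAC6). In each of these pairs the irradiated libraries were close to each other and above Ctrl. RFC3 to RFC2 was 0.884 (Ctrl), 1.08 (RT) and 1.76 (RT + shHDAC6), with changes of 0.29 (95% interval, 0.15 to 0.42) for RT against Ctrl and 0.71 (95% interval, 0.57 to 0.85) between the irradiated libraries, so that here the larger step lay between the irradiated libraries. RRM2 to RRM1 was 0.338 (Ctrl), 0.458 (RT) and 0.543 (RT + shHDAC6), with changes of 0.44 (95% interval, 0.37 to 0.51) and 0.24 (95% interval, 0.18 to 0.31), and was highest in RT + shHDAC6. POLE2 to POLE was 0.0883 (Ctrl), 0.0758 (RT) and 0.0929 (RT + shHDAC6), lowest in RT.

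The promoters of the genes, from 250 bases before to 50 bases after the gene start, were searched in the RefSeq sequences of GRCh38.p14, which held 47 of the 53 genes (without MCM4, MCM5, GINS4, POLD3, RPA2 and RPA3). Of these, 18 (38.3%) held 1 of the letter strings TTTCCCGC, TTTGGCGC, TTTCGCGC or TTTGCCGC on either strand, which are E2F-type motifs, against 3.32% of 35116 promoters of the same length. The share was 38.5% (5 of 13) of the genes called higher in RT against Ctrl and 38.2% (13 of 34) of the other members, so it did not separate them. CCAAT was found in 26 (55.3%) against 34.6% of all promoters, and the CHR-type letters TTTGAA or TTCGAA in 3 (6.38%) against 16.4%. A match describes letters and not binding. The following 30-base windows, read 5′ to 3′ on the strand of the gene with the E2F-type letters in capitals, were chosen to show genes that lay on different sides in these libraries.
MCM7: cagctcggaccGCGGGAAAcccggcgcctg
CDC6: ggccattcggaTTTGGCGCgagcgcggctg
MCM6: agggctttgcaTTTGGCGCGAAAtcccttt
RFC3: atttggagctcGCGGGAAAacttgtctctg
POLE2: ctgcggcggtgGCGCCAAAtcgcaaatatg
PCNA: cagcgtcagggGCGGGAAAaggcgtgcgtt

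The windows lie at chr7:100101566-100101595 (minus strand) for MCM7, chr17:40287875-40287904 (plus) for CDC6, chr2:135876577-135876606 (minus) for MCM6, chr13:33818083-33818112 (plus) for RFC3, chr14:49688201-49688230 (minus) for POLE2 and chr20:5126663-5126692 (minus) for PCNA. The window of MCM6, the helicase gene that was lower in RT than in Ctrl, holds overlapping matches on both strands, and its promoter held 4 matches in all, the most among the members. The window of MCM7, called higher, and that of PCNA, not called, hold the same 8 letters (GCGGGAAA, the reverse complement of TTTCCCGC). RFC3, highest in RT + shHDAC6, holds these letters as well.

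Of 38 other replication factors outside the 53, 8 (21.1%) were called higher in RT against Ctrl and 0 lower, against 13.0% higher over all genes tested and 18.8% over genes with at least 1000 counts. Their median log2 ratio was 0.35. The highest were RECQL4, a helicase of replication initiation, with 4803, 7276 and 5783 counts and a ratio of 1.03, TICRR, which helps to activate origins, at 0.94, and CHTF18, of an alternative clamp loader, at 0.81. The lowest were HELB (-0.26), CHTF8 (-0.17) and SMARCAL1 (-0.098). Between the irradiated libraries, 0 of 38 were called in either direction, against 4.71% higher and 6.35% lower over all genes tested. Among genes with at least 1000 counts these shares were 0.912% and 3.22%. The highest ratios there were those of RNASEH2A (0.57 from 57, 55 and 85 counts, with 53.3% of its exon length shared with THSD8), UHRF1 (0.37) and TOPBP1 (0.32). The lowest were those of LRWD1 (-0.42), SMARCAL1 (-0.40) and RECQL4 (-0.39). With library totals 3 were called higher and 0 lower in RT against Ctrl, with a median of 0.13. Over all genes tested, 6.99% were then called higher and 22.8% lower. In RT + shHDAC6 against RT, RNASEH2A was called higher with library totals, beside 6.29% of all genes tested. In RT + shHDAC6 against Ctrl, 9 (23.7%, against 11.8% over all genes tested) were called higher and 0 lower with TMM and 4 and 1 with library totals.

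Of 39 other nucleotide synthesis genes, 9 (23.1%) were called higher in RT against Ctrl and 0 lower, against the same 13.0% and 18.8%. Their median was 0.13, close to the 0.12 of the genes with at least 1000 counts. The highest were SLC29A1, a nucleoside transporter, with 4269, 8495 and 7291 counts and a ratio of 1.43, PFAS, of purine synthesis, at 1.13, and CTPS1, which makes CTP, at 1.08. The lowest were TYMP (-0.53), MTHFD2 (-0.36) and CMPK1 (-0.30). Between the irradiated libraries 0 were called, against 4.71% higher and 6.35% lower over all genes tested. The highest ratios there were those of GMPS (0.48), TYMP (0.35) and DTYMK (0.30), and the lowest those of SLC29A1 (-0.28), NME2 (-0.24) and ADSS2 (-0.23). With library totals 7 were called higher and 1 (TYMP) lower in RT against Ctrl, against 6.99% and 22.8% over all genes tested. The median of the list turned to -0.084. For RT + shHDAC6 against Ctrl, TMM gave 11 calls of higher genes (28.2%) and 0 of lower genes, against 11.8% and 13.5% over all genes tested. Library totals gave 8 (20.5%) and 0 there, against 7.97% and 18.4%.

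Of 25 genes of E2F and S-phase entry, 2 (8%) were called higher in RT against Ctrl and 0 lower. Over all genes tested 13.0% were called higher, and 18.8% over genes with at least 1000 counts. The list median was 0.25, and 17 intervals lay above 0 and 5 below. CDC25A, the phosphatase that activates CDK2, had 1774, 2286 and 2756 counts and a ratio of 0.80, E2F8, a repressor E2F, had 1651, 2126 and 2204 counts and a ratio of 0.80, and E2F4 followed at 0.57. The lowest were the CDK inhibitor CDKN1A (2793, 1441 and 2093 counts, a ratio of -0.52), RBL2 (-0.47) and RB1 (-0.42). Between the irradiated libraries 0 were called, against 4.71% higher and 6.35% lower over all genes tested. The highest there were TFDP2 (0.55), TFDP1 (0.48) and CDKN1A (0.48), and the lowest E2F5 (-0.54), CDKN1B (-0.44) and E2F1 (-0.053). With library totals 0 were called higher and 3 (CDKN1A, RBL2 and RB1) lower in RT against Ctrl, with a median of 0.029. Over all genes tested, 6.99% were then called higher and 22.8% lower. In RT + shHDAC6 against RT, TFDP2 was called higher with library totals, beside 6.29% of all genes tested. With TMM, 6 (24%) were called higher and 1 (4%) lower in RT + shHDAC6 against Ctrl, against 11.8% and 13.5% over all genes tested. Library totals gave 5 (20%) and 2 (8%) there, against 7.97% and 18.4%.

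Features that the list did not use were set beside the log2 ratios across genes, which are not independent and share their libraries. For RT against Ctrl, the Spearman correlation with the GC content of the transcript was 0.169 over the 53 genes and 0.293 over 7017 genes with at least 1000 counts. Of the 27 members at or below their median GC content of 45.9%, 6 were called higher with a median ratio of 0.40, and of the 26 above it 7 were, with a median of 0.39. Over 2618 genes with at least 1000 counts and a GC content between 41.9% and 52.2%, 16.5% were called higher and 3.51% lower. The members lie on 21 chromosomes, with the most, 6, on chromosome 7.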

How the data were processed

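RNA-seq of T24 cells was analysed in 3 conditions with 1 library each, assigned by the sample labels. Adaptors had been removed by the authors with cutadapt, and reads mapped to GRCh38 by STAR (2.6.1a in the submitters' processing notes, another version in the methods) and assigned by featureCounts to the genes of GENCODE release 28. The deposited values are whole read counts without normalisation. The strand setting and the handling of multi-mapping reads are not given in the sources used here, and the labels and the methods name different library kits. Symbols and positions were taken from GENCODE release 44, which held 57754 of the 58381 identifiers.

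TMM factors were computed on all 3 libraries with edgeR 4.0.16 (R 4.3.3), and log2 ratios with 95% Clopper-Pearson intervals with scipy 1.17.1 (Python 3.11.15). Changes of the count ratio of 2 genes have 95% intervals by a normal approximation from the counts instead. A count of 0 was set to 0.5. Genes with a mean below 10 counts were left out of the shares over all genes, but listed markers were kept. A call required a 1.5-fold difference and an interval that excluded 0. With 1 library per condition, edgeR's quasi-likelihood test and DESeq2's test have no residual degrees of freedom, and the probability of NOISeq, which the study used with TMM, rests on simulated replicates for such data, so neither was used. The steps were tested on simulated data. As reads carry no molecular identifiers, intervals cover counting error only.

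The members, the further gene lists and the alternatives were chosen with earlier results of these data known. Values per library are given for MCM2 to MCM7, CDC45, PCNA, RRM1, RRM2, TYMS and TK1, for the highest and lowest member of each role in RT against Ctrl and in RT + shHDAC6 against RT, and for every called member in either. From each further list, the 3 highest and the 3 lowest genes are named. A cell type marker of the lists is not reported here. Alternatives covered the scaling, 1 count added to every gene, the filter, the fold limit and the interval.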

Additional observations from a re-analysis of the deposited data

How the results depend on the processing

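The replication genes stayed higher in RT than in Ctrl by their median under every scaling tried, while the number of calls moved with the scaling and the fold limit. The filter settings tried, no filter and a mean of at least 100 counts, kept all 53 genes, so they could not change these values. In RT against Ctrl, library totals gave a median of 0.18 with 3 genes called higher and 1 lower, beside 6.99% and 22.8% of all genes tested. Upper quartile factors gave 8 (15.1%) higher, beside 11.1% of all genes tested and 16.1% of genes with at least 1000 counts. In RT + shHDAC6 against Ctrl, library totals gave a median of 0.23 and 6 genes called higher, and in RT + shHDAC6 against RT a median of 0.067. With a 2-fold limit 0 genes were called higher in RT against Ctrl and 0 in RT + shHDAC6 against Ctrl, beside 4.25% and 4.13% of all genes tested. With the lowest limit, a 25% difference, 30 were higher and 2 lower in RT against Ctrl, beside 22.15% and 20.74% of all genes tested. In RT + shHDAC6 against RT 1 was higher and 1 lower, beside 8.73% and 12.1%, and in RT + shHDAC6 against Ctrl 30 were higher, beside 21.9%. Of the medians and counts of the 53 genes recomputed under the alternatives, these 14 moved, and 58 stayed within the counting interval of the median or within 1.5 times the count. The 58 include all values under the filter settings, which could not move. The median in RT + shHDAC6 against RT, where 0 of the 53 genes were called with TMM, was -0.017 there and turned positive with library totals (0.067) and with upper quartile factors (0.010). Over all genes tested, 2432 were called higher and 2390 lower in RT against Ctrl with TMM, 1311 and 4286 with library totals, 797 and 1008 with the 2-fold limit and 4155 and 3891 with the 25% limit, and 988 were lower among genes with a mean of at least 100 counts. The corresponding numbers in RT + shHDAC6 against RT were 883 and 1191 with TMM, 434 and 641 with the 2-fold limit, 1637 and 2275 with the 25% limit and 1679 higher with no interval required, and 327 higher and 627 lower among genes with at least 100 counts. In RT + shHDAC6 against Ctrl they were 2212 and 2526 with TMM, 774 and 1320 with the 2-fold limit, 4106 and 3945 with the 25% limit, and 1230 lower among genes with at least 100 counts. The cause of these shifts was not tested beyond the construction of each alternative. No paired analysis was possible because each condition has 1 library.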
